A study of Mus musculus with 3 samples.

Results

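Regions of CG methylation that differed between preosteoclasts (pOC) and the bone marrow macrophages (BMM) they were made from were taken as all rows of the authors' table for this pair, 251946 regions of the 547915 in 3 such tables. The study followed RANKL-induced osteoclast formation in mouse cells by whole-genome bisulfite sequencing. Bisulfite turns a cytosine without methylation into uracil, read as T, while a methylated one is still read as C. All cells came from bone marrow of C57BL/6 mice aged 11 weeks. Marrow was cultured for 24 h, and the cells that floated were grown with M-CSF, a macrophage growth and survival factor, at 50 ng/mL for 72 h. The pOC were then given M-CSF at 30 ng/mL with RANKL, the cytokine that drives osteoclast formation, at 100 ng/mL for 24 h. The BMM were the cells before RANKL. Mature osteoclasts (mOC), given the same agents for at least 72 h, were the remaining stage, and are named here only where their level at a region was deposited too. Each stage was 1 library of bulk DNA. The labels do not say whether marrow was pooled from several mice.

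In mammals DNA methylation lies mostly on the cytosine of CG pairs. DNMT1 copies it to the new strand after replication, DNMT3A and DNMT3B add it to unmethylated sites, and TET enzymes oxidise it as a step toward removal. Most CG pairs of the genome are methylated, gene bodies often heavily so, while CG-rich gene starts are mostly free of it. RANKL acts on macrophage precursors through its receptor RANK and the kinases, NF-κB and calcium signals behind it, which raise the transcription factor NFATc1 and lead to cell fusion and to the bone-resorbing osteoclast. Only DNA was measured here. The cell type given in the labels could therefore not be checked against marker expression, and a change within cells and a change in the mixture of cells cannot be told apart.

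To show what such a region holds, gene-start windows (250 bases before to 50 after an annotated start, from RefSeq, build GRCm38.p6) of 5 genes are printed with every CG in capitals, the pair at which methylation was read. The windows of Itga10 (chr3:96645334-96645633, plus strand) and Atxn2 (chr5:121738282-121738581, plus strand) overlapped a region lower in pOC. Those of Galnt11 (chr5:25246123-25246422, plus strand), Rbfox1 (chr16:7069585-7069884, plus strand) and Neil3 (chr8:53639016-53639315, minus strand) overlapped a region higher in pOC.
Itga10: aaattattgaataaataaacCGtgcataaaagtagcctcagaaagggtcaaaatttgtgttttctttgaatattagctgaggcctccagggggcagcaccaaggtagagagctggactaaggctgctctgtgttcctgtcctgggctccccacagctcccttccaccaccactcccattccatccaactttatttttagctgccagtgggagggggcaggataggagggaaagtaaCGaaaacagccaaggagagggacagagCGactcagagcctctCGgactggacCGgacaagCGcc
Atxn2: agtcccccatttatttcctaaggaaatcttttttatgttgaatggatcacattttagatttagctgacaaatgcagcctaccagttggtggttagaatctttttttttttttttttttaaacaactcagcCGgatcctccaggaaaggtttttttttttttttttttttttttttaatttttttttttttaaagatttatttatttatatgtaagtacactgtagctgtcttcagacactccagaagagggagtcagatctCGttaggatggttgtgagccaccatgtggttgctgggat
Galnt11: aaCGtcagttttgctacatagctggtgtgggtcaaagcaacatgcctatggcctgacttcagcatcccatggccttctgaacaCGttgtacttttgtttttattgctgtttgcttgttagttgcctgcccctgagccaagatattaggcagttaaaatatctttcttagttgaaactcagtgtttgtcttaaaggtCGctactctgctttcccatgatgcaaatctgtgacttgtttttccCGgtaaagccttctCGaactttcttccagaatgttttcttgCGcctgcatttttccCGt
Rbfox1: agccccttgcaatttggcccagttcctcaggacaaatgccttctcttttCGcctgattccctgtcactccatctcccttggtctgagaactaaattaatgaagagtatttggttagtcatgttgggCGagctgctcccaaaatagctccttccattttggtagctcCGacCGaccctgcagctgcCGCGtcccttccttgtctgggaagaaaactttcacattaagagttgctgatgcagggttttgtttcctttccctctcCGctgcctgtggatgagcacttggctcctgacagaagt
Neil3: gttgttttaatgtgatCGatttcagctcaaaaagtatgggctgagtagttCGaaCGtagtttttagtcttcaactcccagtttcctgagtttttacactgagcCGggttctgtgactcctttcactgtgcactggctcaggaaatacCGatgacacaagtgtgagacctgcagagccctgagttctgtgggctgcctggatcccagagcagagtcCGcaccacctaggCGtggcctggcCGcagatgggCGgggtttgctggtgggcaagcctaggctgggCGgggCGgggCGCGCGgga
The 5 windows held 6, 2, 7, 7 and 14 CG pairs in this order, of which 3, 2, 1, 6 and 4 lay inside the listed region. The deposited number of cytosines counts both strands. It equalled 2 cytosines per printed CG pair in 158 of 162 regions that lay wholly inside a window.

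Of the 251946 listed regions, 234161 were lower in pOC than in BMM and 17785 were higher, which is 92.9% and 7.06% of all listed. A level is the methylated reads of a region divided by all its reads, summed over its cytosines, and differences are pOC minus BMM in percentage points. The median level was 48.7% in pOC and 80.0% in BMM. Among lower regions the median difference was -29.44 points (quartiles -35.65 and -24.88), and among higher regions it was 27.26 points. The authors listed no difference under 20 points, so these medians describe the listed regions and not the genome. Differences of 20 to under 25 points made up 26.2% of the list, and differences of 30 points or more 46.6%.

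With 1 library per stage no difference has a replicate check and none was tested. Exact Clopper-Pearson 95% intervals of levels and Newcombe 95% intervals of differences cover counting error only. They are too narrow, because a read over several cytosines is counted at each. Exact intervals of shares of regions take regions as independent, though all come from the same pOC and BMM libraries. Positions are of GRCm38, and regions named by a gene overlap its annotated span or start window, with exons and introns not placed. The whole interval lay 20 or more points from 0 in 28346 regions lower in pOC (11.3% of all listed) and in 492 regions higher in pOC (0.195%). Lower regions made up 98.3% of these 28838 regions. Counting a read only once per strand and region was approximated by the mean reads per cytosine, added over both strands, at the same level. With these counts 65059 of the 251946 intervals excluded 0.

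For some regions the mOC level was deposited as well, in tables that share the pOC or the BMM library and list only differences of their own. The 78761 lower regions that the table of mOC against pOC also lists (33.6% of lower regions) had medians of 46.4% in pOC against 81.9% in BMM, with 80.3% in mOC. The 3631 higher regions it lists (20.4% of higher regions) had 55.6% in pOC against 23.5% in BMM, with 25% in mOC. In the table of mOC against BMM the 14928 lower regions (6.38%) had 47.1% in pOC against 82.9% in BMM, with 53.6% in mOC, and the 2200 higher ones (12.4%) had 56.3% in pOC against 24.1% in BMM, with 58.1% in mOC. Each of these tables fixes by its own selection which pair of libraries differs. Neither table lists 60.6% of the lower and 67.6% of the higher regions, and every difference reported here rests on the single pOC and BMM libraries.

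**Figure D1:**
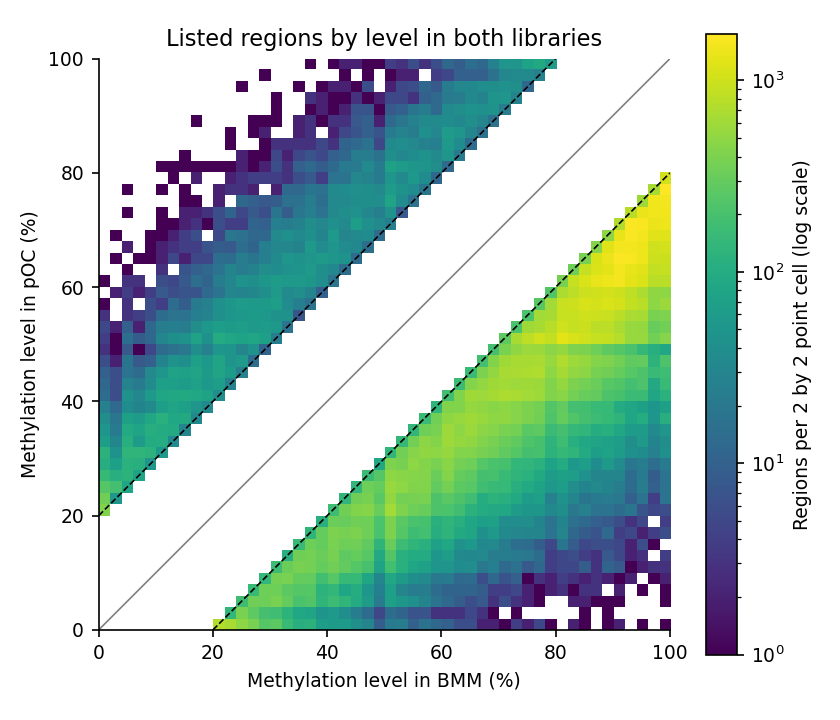
Number of listed regions in each 2 by 2 point cell of methylation level in pOC (vertical axis, %) and BMM (horizontal axis, %), on a log colour scale. The empty band between the dashed lines holds differences under 20 points, which were not listed, and most of the 234161 lower regions sit at the right, where BMM was above 60%.

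The median level of listed regions in pOC followed their level in BMM, which the listing threshold fixes in part. Of regions at 80 to under 100% in BMM, 112846 in number and the largest class, the median level was 59.1% in pOC against 90.2% in BMM. In the 61372 regions at 60 to under 80% in BMM the medians were 40% in pOC and 71.1% in BMM. In the 36591 regions at 40 to under 60% they were 22.5% in pOC and 51.1% in BMM. By these medians, listed regions that were highly methylated in BMM were at middle levels in pOC. Those at middle levels in BMM were low in pOC. Much of this shift is set by the listing rule and is not a separate result. A region near full methylation in BMM has no room for a listed rise, so it must be lower in pOC by at least the threshold. A listed fall from a middle level must likewise end at least that much lower.

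The size of the loss in points changed little over this range while the share of methylation kept changed much. The median difference of lower regions was -24.29 points at 20 to under 40% in BMM, -28.61 at 40 to under 60%, -30.38 at 60 to under 80%, -30.00 at 80 to under 100% and -31.25 in the 14261 regions at 100%. The median ratio of the pOC level to the BMM level in the same classes was 0.197, 0.429, 0.567, 0.665 and 0.688. A listed fall of at least 20 points caps this ratio, and more tightly at low BMM levels. Its rise is thus set in part by the listing rule and is not a separate result. A region at 20% in BMM can only fall to 0, so the lowest class had little room beyond the listing threshold. Binned by the mean of both levels instead, which does not place one library on both axes, the median difference was -23.98 points under 20%, -28.86, -31.51 and -30.89 in the next 3 classes and -25.24 at 80 to under 100%. The largest losses then lay at middle levels.

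Few regions lost their methylation altogether. Of the 234161 lower regions, 30917 (13.2%) had under 20% in pOC and 3509 (1.5%) had no methylated read in pOC. Of these 3509 regions 3185 had 20 to under 40% in BMM. From that starting level a listed fall must end under 20%, which fixes 14276 of the 30917 regions. Starting from 80 to under 100% in BMM, 364 regions (0.323%) had under 20% in pOC, and 81.1% kept at least 50%. A loss of 50 points or more was seen in 9144 regions (3.91% of lower regions), and a gain of that size in 236 regions (1.33% of higher regions).

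Gains were a feature of DNA with low or middle methylation in BMM. All 7719 listed regions under 20% in BMM were higher in pOC and none at 80% or above was, which the threshold of 20 points fixes. Between these limits both directions were possible. There the share higher in pOC was 25.5% at 20 to under 40% in BMM, 9.19% at 40 to under 60% and 2.97% at 60 to under 80%. By the mean of both levels it was 29.3% under 20%, 15.9%, 7.34% and 3.04% in the next 3 classes and 2.68% at 80 to under 100%. The median gain was 26.32 points under 20% in BMM, 29.29 at 20 to under 40%, 28.18 at 40 to under 60% and 24.67 at 60 to under 80%. In 424 regions higher in pOC every read was methylated in pOC.

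**Figure D2:**
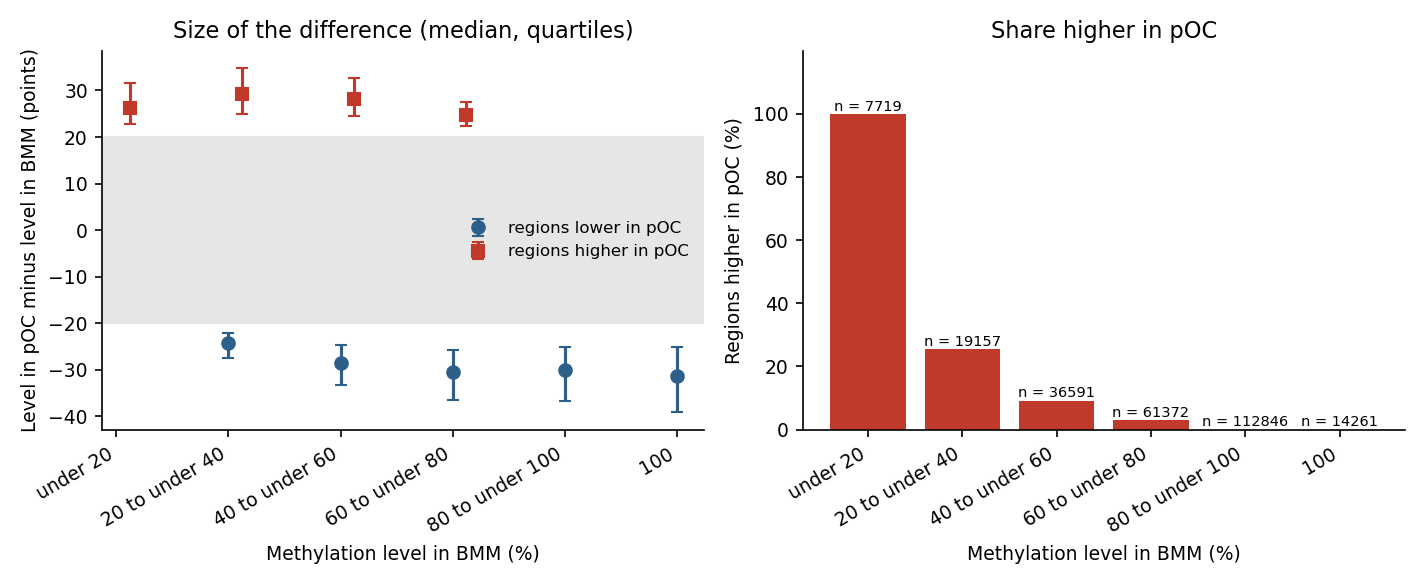
Left, the median difference pOC minus BMM (points) with quartiles, for regions higher (squares) and lower (circles) in pOC, by level in BMM (%), with the unlisted band of under 20 points in grey. Right, the share of regions higher in pOC (%), which was 25.5% at 20 to under 40% and 2.97% at 60 to under 80%.

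Depth, the reads of a region summed over its cytosines, moved with both the size and the direction. Where the shallower library had 16 to 19 reads, the median difference of lower regions was -35.29 points and 10.7% of regions were higher in pOC. At 30 to 39 reads these values were -28.12 points and 6.98%, and at 100 reads or more -26.96 points and 1.28%. The median shallower depth was 32 reads. The part of depth in the share of gains was not tested.

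The region with the most reads in each class of BMM level had narrow intervals. These regions were picked for depth, against list medians of 37 reads in pOC and 37 in BMM. Whether reads from repeat copies add to that depth was not tested. Inpp4a, which encodes an inositol phosphatase, had 67.1% in pOC (152 reads, 95% interval 59 to 74.5) against 100% in BMM (146 reads, 97.5 to 100) at chr1:37352603-37352802. Luc7l3, a splicing factor gene, had 55.9% in pOC (410 reads) against 83.9% in BMM (521 reads) at chr11:94296602-94297201. A region outside protein-coding genes at chrY:90799401-90800000 had 50.8% in pOC (618 reads) against 75.1% in BMM (702 reads). These 3 regions started high and kept more than 50% in pOC.

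At lower starting levels the deepest regions went both ways. A region outside protein-coding genes at chr13:9834204-9834603 had 74.1% in pOC (854 reads) against 51.4% in BMM (1810 reads), a gain of 22.7 points (18.9 to 26.4). Sulf1, the gene of an enzyme that trims heparan sulfate, had 12.4% in pOC (346 reads) against 34.2% in BMM (319 reads) at chr1:12774203-12774402. Ptprz1, a receptor phosphatase gene, had 30.9% in pOC (188 reads) against 7.22% in BMM (277 reads) at chr6:23038601-23039000.

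The size of the listed loss varied with CG density, and so did the summed reads, which rise with the number of cytosines. The number of cytosines per 200 bp was under 6 in 118761 regions, 6 to under 10 in 104618, 10 to under 20 in 27842 and 20 or more in 725. The median summed depth of the shallower library in these classes was 23, 36, 57 and 110 reads. Reads per cytosine in pOC had medians of 6.5, 6.0, 5.67 and 5.59. The median difference of lower regions was -31.58, -28.10, -26.49 and -26.36 points. Among regions with 40 to 59 reads it was -27.67, -26.44 and -26.92 points in the first 3 classes, and none had 20 or more cytosines. With 60 to 99 reads it was -27.65, -26.92, -26.00 and -26.87 points. At matched summed reads the classes thus lay within 1.65 points of each other. Reads per cytosine were not matched there, with pOC medians of 10.5, 7.33 and 5.0 in the 3 classes with 40 to 59 reads.

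The share of gains by CG density also depended on the summed reads. Over all regions it was 9.18%, 5.66%, 3.32% and 4.97% from the sparsest to the densest class. With 40 to 59 reads it was 5.70%, 5.22% and 3.86%, and with 60 to 99 reads 2.26%, 2.46%, 2.93% and 5.69%, where the order was turned round. The last value is 14 of 246 regions.

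**Figure D3:**
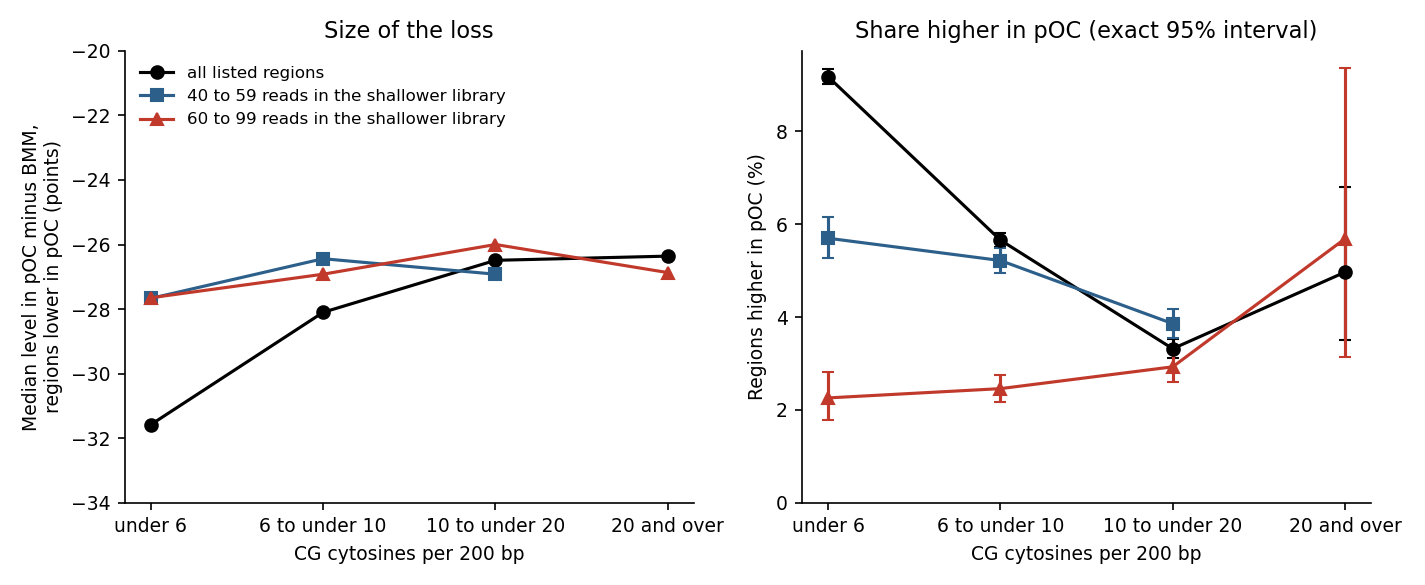
Median difference pOC minus BMM of regions lower in pOC (left, points) and share of regions higher in pOC (right, %, exact 95% binomial intervals) by CG cytosines per 200 bp, for all listed regions and for 2 ranges of reads in the shallower library. The slope over all regions, -31.58 to -26.36 points, is nearly flat within a range of reads.

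Of the 725 CG-dense regions with 20 or more cytosines per 200 bp, 689 were lower and 36 higher in pOC, with median differences of -26.36 and 23.87 points. The whole interval lay 20 or more points from 0 in 209 of the lower and 6 of the higher ones. The 4 losses and 4 gains farthest from 0 by their interval are given next. Chrna7, a nicotinic acetylcholine receptor subunit gene, had 18.3% in pOC (93 reads, 11.0 to 27.6) against 79.0% in BMM (81 reads, 68.5 to 87.3) at chr7:63204801-63205000, 7626 bp after an annotated start. Brwd1, a bromodomain gene, had 29.6% in pOC (108 reads) against 81.8% in BMM (154 reads) at chr16:96045001-96045200, and 71.2% in mOC (125 reads). Clic4, an intracellular chloride channel gene, had 41.3% in pOC (104 reads) against 92.5% in BMM (107 reads) at chr4:135217003-135217202, and 89.3% in mOC (103 reads). For Maml2, which encodes a Notch coactivator, the levels were 23.5% in pOC (98 reads) and 73.9% in BMM (119 reads) at chr9:13687201-13687400. In these 4 regions the intervals of pOC and BMM lay far apart, but they are too narrow, as reads are summed over 20 to 24 cytosines. Median reads per cytosine in the CG-dense class were only 5.591 in pOC and 5.475 in BMM.

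Among the gains, Nostrin, which encodes a regulator of nitric oxide synthase traffic, had 71.2% in pOC (125 reads, 62.4 to 78.9) against 35.7% in BMM (115 reads, 26.9 to 45.1) at chr2:69152002-69152201, and 41.9% in mOC (191 reads). Gys1, the gene of muscle glycogen synthase, had 42.2% in pOC (268 reads) against 20.4% in BMM (343 reads) over 48 cytosines at chr7:45440401-45440600. Peak1, a pseudokinase gene, had 64.5% in pOC (276 reads) against 41.4% in BMM (350 reads) over 62 cytosines at chr9:56223401-56223800. For Mocos, the molybdenum cofactor sulfurase gene, the levels were 56.2% in pOC (80 reads) and 17.4% in BMM (86 reads) at chr18:24654401-24654600. The 4 gains named were between 21.8 and 38.8 points.

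Wider regions were nearly all losses. Regions are built from bins of 200 bp, and 234559 were 200 bp wide, 15982 were 400 bp and 1405 were 600 bp or more. The share higher in pOC was 7.52%, 0.951% and 0 in these classes, and a count of 0 of 1405 allows a share of up to 0.214% by 3 counts of the total and 0.262% by the exact interval. The median difference of lower regions did not follow width, at -29.47, -29.07 and -29.35 points. Wider regions started higher, with medians of 48.3%, 52.5% and 55.2% in pOC and of 79.6%, 83.7% and 86.3% in BMM. Within the class of 60 to under 80% in BMM, 3.23% of 200 bp regions and 0.148% of 400 bp regions were higher in pOC. A wide region needs several neighbouring bins that moved the same way, so the rarer direction has fewer of them by construction.

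Of wide regions in genes with named symbols the 3 farthest from 0 were losses. Rbbp6, a ubiquitin ligase gene, had 38.4% in pOC (125 reads) against 98.2% in BMM (111 reads) over 600 bp at chr7:122996801-122997400. Cbx5, which encodes a heterochromatin protein that reads histone methylation, had 26.1% in pOC (207 reads) against 74.9% in BMM (211 reads) at chr15:103237401-103238000, 2152 bp after an annotated start. Elk4, an ETS factor gene, had 42.2% in pOC (109 reads) against 90.8% in BMM (152 reads) at chr1:132026403-132027002. Its mOC level was 77.5% (138 reads).

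Neighbouring regions shared their direction only in part. Of 920 pairs that adjoin with 0 bp between them, 795 (86.4%) were opposite, and the next was higher in 1.18% after a higher and in 75.9% after a lower region. Listed regions wider than 1 bin hold neighbouring bins of 1 direction, so few pairs of that kind can stay apart. Of 35135 pairs of neighbours under 1000 bp apart, the 920 adjoining ones included, 31616 were both lower in pOC, 146 both higher and 3373 opposite. After a higher region the next was higher in 7.71% of these pairs, and after a lower region in 4.89%. Both shares thus also hold the adjoining pairs, most of which were opposite. At 1 to under 10 kb these shares were 10.6% and 5.27%, and at 10 to under 100 kb 14.8% and 10.4%. Over windows of 1 Mb with at least 50 regions, 1930 in number, the share higher in pOC had a median of 6.10% and a maximum of 27.0%, and none was mostly higher. It was 15.3% of regions in windows whose median BMM level was under 60%, 7.32% at 70 to under 80% and 2.22% at 90% and over.

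The levels of listed regions depended on distance from genes. In gene spans (153964 regions) the median was 52.9% in pOC and 85.1% in BMM. Up to 5 kb from a gene it was 46.9% in pOC and 78.1% in BMM, and over 100 kb away (8542 regions) 32.5% in pOC and 55.3% in BMM. The share of regions higher in pOC was 5.17% in genes, 6.43% up to 5 kb away, 8.73% at 5 to 20 kb, 12.4% at 20 to 100 kb and 18.2% beyond 100 kb. The median difference of lower regions stayed between -29.55 and -29.18 points in all 5 classes.

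At equal starting level the direction hardly differed with distance. At 20 to under 40% in BMM, 25.6% of regions in genes, 25.3% up to 5 kb away and 26.0% beyond 100 kb were higher in pOC. At 40 to under 60% these shares were 10.2%, 8.71% and 8.82%, and at 60 to under 80% they were 3.39%, 2.76% and 2.65%. The pooled contrast of more gains outside genes was thus absent in the lowest of these classes and ran the other way in the other two.

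**Figure D4:**
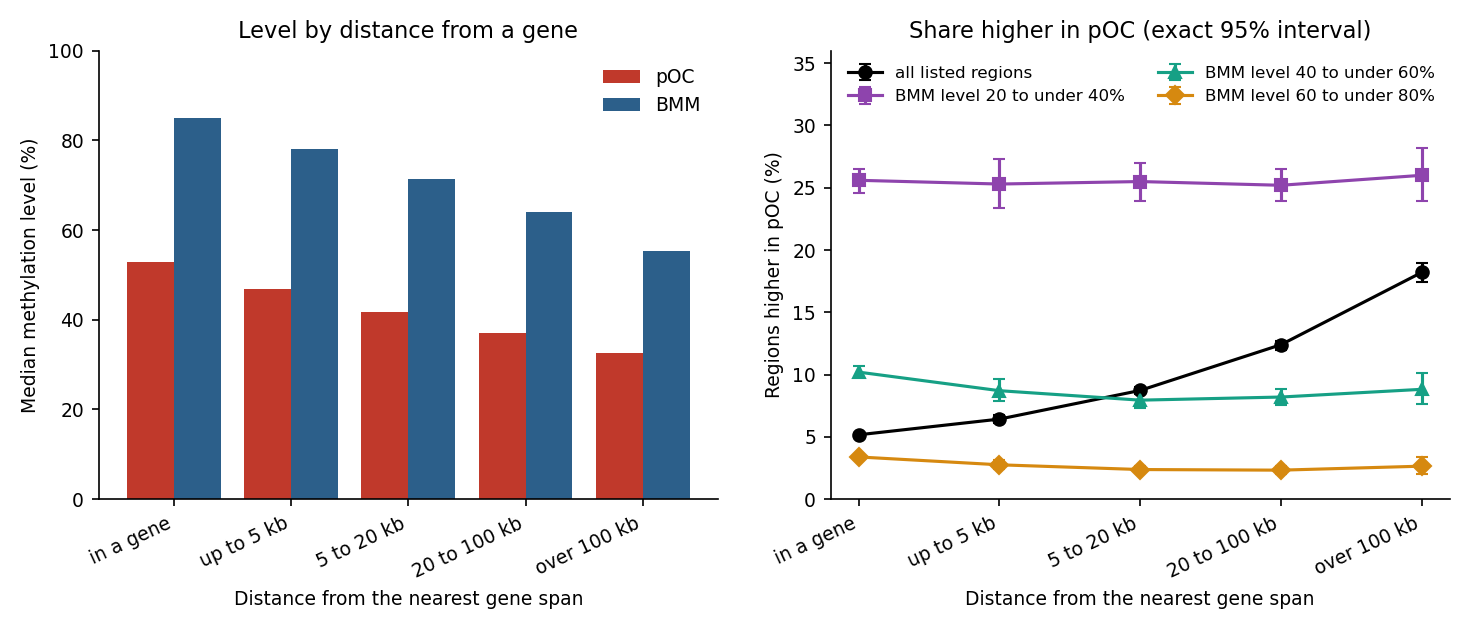
Left, the median methylation level (%) of listed regions in pOC and BMM by distance from the nearest gene span. Right, the share of regions higher in pOC (%, exact 95% binomial intervals) for all listed regions, 5.17% in genes and 18.2% beyond 100 kb, and within 3 classes of BMM level, where the lines are nearly level.

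Along gene bodies the median level was a few points higher at the end than at the start in both libraries. The spans of 11080 genes of at least 10 kb were cut into 10 equal parts from the start to the end of transcription. The median level was 52.2% in pOC and 84.2% in BMM in the first of the 10 and 56.1% in pOC and 88.2% in BMM in the last. The median difference of lower regions lay between -29.58 and -29.19 points in every one of these parts, a value near that of most classes of the list. The share higher in pOC was 4.67% in the first part, 4.94% (exact 95% interval 4.54 to 5.37) in the sixth and 3.65% (3.31 to 4.01) in the last.

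Listed regions at gene starts were few and lay mostly at CG-poor starts. Of 32851 start windows 964 (2.93%) overlapped a listed region, and chromosome 18 start sites are not used here. Windows with a region lower in pOC had a median of 4 CG pairs, windows with a region higher in pOC also 4, and all windows 7. At least 10 CG pairs were held by 11.1% of the windows with a lower region, 13.8% of those with a higher one and 43.5% of all windows. The 896 regions that overlapped such windows were lower in pOC in 93.0% of cases, with medians of 46.4% in pOC and 76.9% in BMM. Regions were also classed by the distance of their midpoint from the nearest start. The median BMM level then dipped toward the start and rose again after it. It was 81.7% at 2 to 5 kb before, 76.0% in the 471 regions from 250 bp before to 50 bp after, and 85.7% at 2 to 5 kb after. The median pOC level followed it with 49.7%, 46.8% and 53.0%.

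Motifs of osteoclast transcription factors were looked for in the same windows on both strands, as letters only. TGANTCA, read by AP-1 factors such as Fos, was in 8.87% of windows with a lower region, 12.3% of the 65 windows with a higher region and 7.81% of all windows. CACGTG, an E-box form read by Mitf, was in 6.21%, 3.08% and 7.15% of these. GAGGAAGT, a form read by the ETS factor PU.1, was in 2.77%, 3.08% and 3.20%. Matches of different motifs can share end letters, and CACGTG holds a CG pair itself.

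Among gene-start regions lower in pOC, Trim46, a microtubule organiser gene of neurons, had 43.6% in pOC (140 reads, 35.2 to 52.2) against 90.2% in BMM (82 reads, 81.7 to 95.7) at chr3:89244801-89245000. Itga10, a collagen-binding integrin subunit gene whose window is printed above, had 51.9% in pOC (81 reads) against 97.7% in BMM (87 reads) at chr3:96645601-96645800. Atxn2, an RNA-binding protein gene, had 40.4% in pOC (57 reads) against 90.0% in BMM (60 reads) at chr5:121738401-121738800. Vmn2r108, a vomeronasal receptor gene, had 30.0% in pOC (20 reads) against 90.5% in BMM (21 reads) at chr17:20481001-20481200. The first 3 stayed between 40.4% and 51.9% in pOC. The Vmn2r108 region shared 14 bases and 0 CG pairs with its start window, and the Trim46 region 37 bases and 1 CG pair.

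The 63 gene-start regions higher in pOC had medians of 57.4% in pOC and 26.7% in BMM, and the 4 named ones had 4.76 to 26.2% in BMM. Rbfox1, a splicing factor gene, had 56.1% in pOC (57 reads, 42.4 to 69.3) against 18.3% in BMM (71 reads, 10.1 to 29.3) at chr16:7069601-7069800. Neil3, a DNA glycosylase gene of base excision repair, had 55.2% in pOC (58 reads) against 26.2% in BMM (61 reads) at chr8:53639201-53639400, and its mOC level was 31.2% (48 reads). Fnd3c2 had 58.3% in pOC (36 reads) against 23.3% in BMM (30 reads) at chrX:106255601-106255800. This region shared 22 bases and 0 CG pairs with the start window, so its cytosines lay outside it. The span of Rbfox1 held 105 lower and 8 higher regions.

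Galnt11, which encodes an enzyme that starts O-linked sugar chains, had both directions at 1 start. Its region at chr5:25246001-25246200 had 59.1% in pOC (22 reads, 36.4 to 79.3) against 4.76% in BMM (21 reads, 0.12 to 23.8). The region 200 bp further on, at chr5:25246401-25246600, had 47.6% in pOC (42 reads, 32.0 to 63.6) against 94.1% in BMM (51 reads, 83.8 to 98.8). The window printed above touches both, so a low and a high level in BMM stood next to each other and were near each other in pOC. The second of these regions was chosen after its values were seen.

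Across all genes the 10 losses farthest from 0 by their interval had 0 to 16.7% in pOC and 89.8 to 100% in BMM. Bcap29, the gene of an endoplasmic reticulum membrane protein, had 2.44% in pOC (1 of 41 reads, 0.0617 to 12.9) against 89.8% in BMM (44 of 49 reads, 77.8 to 96.6) at chr12:31622401-31622600, a loss of 87.4 points (72.0 to 93.5). Prkag2, which encodes a regulatory subunit of the energy sensor AMPK, had 16.7% in pOC (60 reads) against 96.4% in BMM (56 reads) at chr5:25063001-25063200, and its mOC level was 83.9% (56 reads). Ncoa3, a nuclear receptor coactivator gene, had 6.25% in pOC (32 reads) against 91.4% in BMM (35 reads) at chr2:166049002-166049201. Such near-complete losses were the exception among regions that started this high.

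Of the other 7, Arhgef10l had 11.8% in pOC (34 reads) against 96.9% in BMM (32 reads) at chr4:140595603-140595802. Zfp267, a zinc finger gene, had 10.3% in pOC (29 reads) against 94.2% in BMM (52 reads) at chr3:36154201-36154400. Cenpp, a centromere protein gene, had 10% in pOC (20 reads) against 96.9% in BMM (32 reads), and 91.3% in mOC (23 reads), at chr13:49576804-49577003. Plekha8, a glycolipid transfer protein gene, had 13.6% in pOC (22 reads) against 100% in BMM (25 reads) at chr6:54606801-54607000. Npm1, Ercc4 and Phlpp1 complete the 10, with mOC levels of 80.8% (26 reads) in Npm1 and 60.7% (28 reads) in Ercc4. Phlpp1 had 0 of 16 reads methylated in pOC, which allows a level of up to 18.8% by 3 counts of the total and 20.6% by the exact interval. Most of these genes held several listed regions of the same direction, such as 41 lower and none higher in Prkag2 and 57 lower and 1 higher in Phlpp1. Such counts are not particular to them, as 95.3% of all regions in protein-coding genes were lower.

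The 10 gains farthest from 0 had 61.1 to 100% in pOC and 0 to 40.9% in BMM, and rested on 16 to 48 reads per library. Rbm39, a splicing factor gene, had 64.6% in pOC (48 reads, 49.5 to 77.8) against 3.57% in BMM (28 reads, 0.0904 to 18.3) at chr2:156155402-156155601, and 44.6% in mOC (56 reads). Ate1, the arginyltransferase gene of the N-degron pathway, had 90.9% in pOC (33 reads) against 31.4% in BMM (35 reads) at chr7:130506601-130506800. Trip4, a transcriptional coactivator gene, had 100% in pOC (20 reads) against 36.4% in BMM (22 reads) at chr9:65839201-65839400, and 84.2% in mOC (19 reads). Tmem71 had 100% in pOC (24 reads) against 40.9% in BMM (22 reads) at chr15:66557601-66557800. In each of these genes lower regions outnumbered higher ones, for example 32 against 1 in Ate1. That held for protein-coding genes at large, where 95.3% of all regions were lower in pOC.

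Kctd1, a transcriptional repressor gene, had 68.4% in pOC (19 reads) against 2.86% in BMM (35 reads) at chr18:15019001-15019200, and 4.17% in mOC (24 reads). Dcc, the netrin receptor gene, had 61.1% in pOC (18 reads) against 0 of 23 reads in BMM, which allows a level of up to 13.0% by 3 counts of the total and 14.8% by the exact interval, at chr18:72289201-72289400. The other 4 gains lay in Cacna2d1, Lrp1b, Vps13a and Sema5a, with mOC levels of 29.4% (17 reads) in Cacna2d1 and 54.5% (33 reads) in Lrp1b. Lrp1b, a very long lipoprotein receptor gene, held 73 lower and 17 higher regions.

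**Figure D5:**
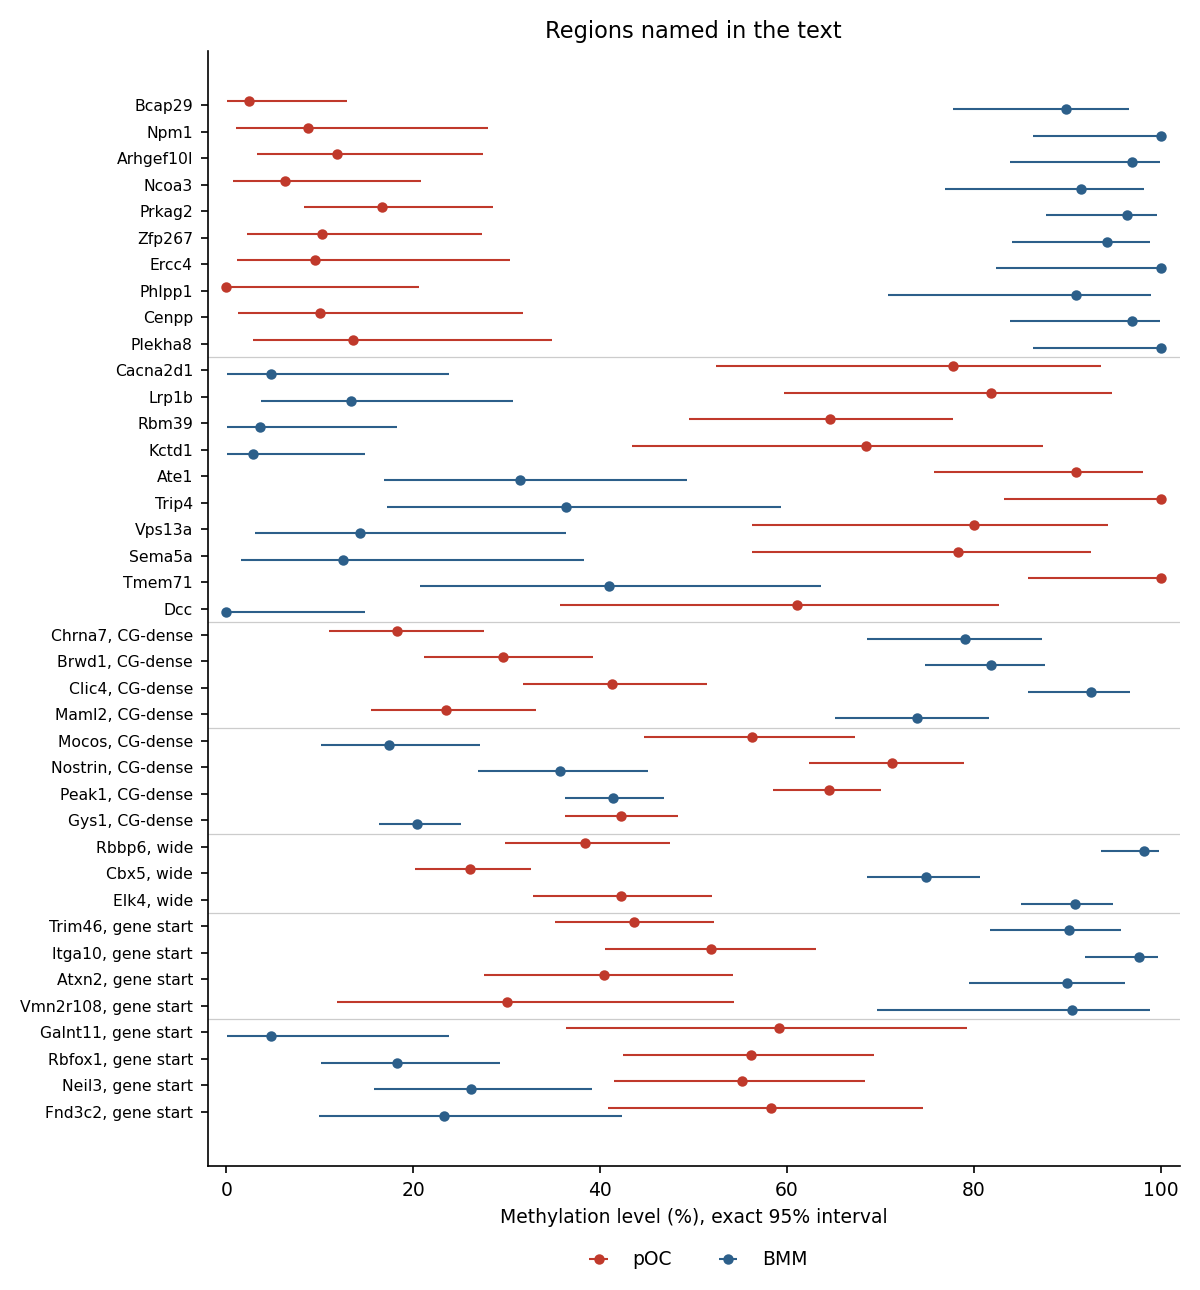
Methylation level (%) in pOC (red) and BMM (blue) with exact 95% intervals for 39 named regions, in blocks of losses and gains across all genes, CG-dense, wide and gene-start regions. Intervals of the 2 libraries overlap only in the gene-start gain of Fnd3c2, at 58.3% in pOC and 23.3% in BMM.

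Regions in genes of osteoclast formation were nearly all lower in pOC. Of the 35 genes on the osteoclast list 32 held a listed region, 263 lower and 3 higher in pOC, with medians of 56.3% in pOC and 88.9% in BMM. Of all 21883 protein-coding genes 14709 held a listed region, the share to set beside this list and those below. Over all 135205 regions in protein-coding genes 95.3% were lower, with medians of 54.2% in pOC and 86.4% in BMM. The regions of a gene share their DNA and cells and are not replicates. Trem2, which encodes an immune receptor, and Tyrobp and Fcer1g, which encode adaptor subunits of such receptors, held none.

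By role, the receptor gene Tnfrsf11a, which encodes RANK, held 10 lower regions with medians of 48.0% in pOC and 82.8% in BMM, and Csf1r, the M-CSF receptor gene, held 6 with 59.6% in pOC and 87.8% in BMM. Among transcription factor genes Tfec held 15 lower regions (62.5% in pOC, 89.7% in BMM), Spi1, which encodes PU.1, held 6 (38.8% in pOC, 73.1% in BMM) and Jdp2, which encodes an AP-1 family member, held 10 (64.1% in pOC, 92.2% in BMM). The Jdp2 region farthest from 0 had 58.3% in pOC (180 reads, 50.8 to 65.6) against 97.6% in BMM (123 reads, 93.0 to 99.5) at chr12:85631601-85632000. Cd109, a surface protein gene, held 26 lower regions with medians of 52.3% in pOC and 90.2% in BMM. These genes differed in level but not in direction.

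Genes of resorption and fusion followed the same direction. Atp6v0d2, a proton pump subunit gene, held 10 lower regions (55.3% in pOC, 89.0% in BMM), Ctsk, the gene of the collagen-cutting protease cathepsin K, held 2 (60.4% in pOC, 89.4% in BMM), and Dcstamp, a fusion receptor gene, held 2 (63.9% in pOC, 94.1% in BMM). Car2, a carbonic anhydrase gene, held 3 (20.8% in pOC, 52.2% in BMM). The 3 higher regions lay in Itgb3, with 1 higher and 2 lower, and in Mitf, with 2 higher and 42 lower. By the interval of their difference Ostm1, Mitf, Ppargc1b, Cd109, Jdp2, Itgav, Clcn7, Prdm1, Src and Nfatc1 held the 10 most secure regions of the list, all lower in pOC, with 7.14% in pOC and 53.3% in BMM at Src (chr2:157448402-157448601) as the lowest starting level. The mOC level was deposited for 4 of them, at 73.7% in Ppargc1b, 92.3% in Cd109, 79.7% in Itgav and 59% in Clcn7.

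The RANK signalling list held 488 lower and 15 higher regions in 27 of 30 genes (97.0% lower, against 95.3% over all regions in protein-coding genes), with medians of 61.3% in pOC and 92.3% in BMM. The calcium channel genes Itpr1 and Itpr2 and the calcineurin gene Ppp3ca held 75 lower and 0 higher, 77 and 4, and 70 and 1. Traf3, an inhibitor of the noncanonical NF-κB branch, held 27 lower and 1 higher, and Nfkb1 held 27 lower. Camk4, a calcium-dependent kinase gene, held 13 lower and 4 higher regions with medians of 40.6% in pOC and 54.7% in BMM.

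Genes of the methylation machinery held 145 lower and 3 higher regions in 16 of 21 genes (98.0% lower, against 95.3% over all regions in protein-coding genes). The maintenance enzyme gene Dnmt1 held 14 lower regions (56.9% in pOC, 90.1% in BMM), the de novo enzyme gene Dnmt3a 13 (66.2% in pOC, 94.1% in BMM) and the oxidase gene Tet3 20 (61.9% in pOC, 89.7% in BMM). Tet1 held 13 lower and 2 higher regions at a lower level (36.2% in pOC, 61.0% in BMM). The macrophage list held 109 lower and 2 higher regions in 17 of 24 genes (98.2% lower), with 18 lower regions each in the receptor genes Mertk and Mrc1.

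Genes of other marrow cell types are set beside the 4.71% of all regions in protein-coding genes that were higher in pOC. The stroma and osteoblast list held 126 lower regions and none higher, with medians of 57.7% in pOC and 89.7% in BMM, of which Runx2 held 77 and Kitl 28. A count of 0 of 126 still allows a share higher of up to 2.38% (3 counts of the total). The T and B cell list held 61 lower and 8 higher regions (11.6% higher, exact 95% interval 5.14 to 21.6) with medians of 29.4% in pOC and 57.1% in BMM. In genes at 40 to under 60% in BMM 10.2% of regions were higher. Ebf1, a B cell transcription factor gene, held 35 lower and 6 higher regions of the T and B cell list (25.5% in pOC, 51.9% in BMM). The interval of that list takes such regions of 1 gene as independent. Neutrophil genes held 7 lower and 0 higher, and erythroid genes 9 and 1, too few to give a share.

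Listed regions on the X chromosome were more often higher in pOC than those on the autosomes. Over all listed regions 15.2% of 2660 on X and 5.83 to 7.83% on each of the 19 autosomes were higher in pOC, and the median BMM level was 66.7% on X and 80.0% on autosomes. At 20 to under 40% in BMM, 29.6% of regions on X (exact 95% interval 25 to 34.6) and 25.4% on autosomes (24.7 to 26.0) were higher in pOC. At 40 to under 60% the shares were 11.7% on X (9.16 to 14.7) and 9.14% on autosomes (8.84 to 9.44), and at 60 to under 80% they were 4.62% on X (3.11 to 6.56) and 2.96% on autosomes (2.82 to 3.09). The intervals of X and autosomes overlap in the first 2 of these classes and not in the last. The median shallower depth was 25 reads on X and 32 on autosomes, and its part in the difference was not tested. On Y, 31.8% of 173 listed regions were higher in pOC (24.9 to 39.3), at a median BMM level of 45.0%. The labels give no sex. These Y regions had reads in both libraries, with a median shallower depth of 27. Whether reads from other chromosomes add to them was not tested.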

How the data were processed

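Whole-genome bisulfite sequencing of pOC, BMM and mOC (1 library each) was used as the authors' tables of CG regions. Per the file headers, a region has deposited counts of methylated and of all reads in both libraries, a methylation level as a deposited fraction, a number of cytosines and the authors' p-value, at most 0.05 here. Widths were multiples of 200 bp. Checked against its own values, the table held no difference under 20 points and no region under 4 cytosines, 16 reads or 4 reads per cytosine. Its headings give hours, which were matched to the stages. The submitters' processing notes name GRCm38 as the build and the tools FastQC, StringTie and HISAT2, without role or version. For the bisulfite aligner and the region caller, names were not given in the sources used here. Depth per library is not known from a table of listed regions only. The median depth of the shallower library was 32 reads per region.

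Levels were recomputed from the deposited counts with Python 3.11.15, numpy 2.4.6, pandas 2.3.3 and scipy 1.17.1. The interval functions were tested on simulated data. Regions were joined to gene spans and start windows of RefSeq GRCm38.p6 by an overlap of at least 1 base. Exons and introns were not placed. No test was run. Members and lists were chosen with earlier results of these data known.

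Named regions were, 1 per gene with a plain symbol and leaving out regions with over 30 reads per cytosine, those whose Newcombe interval bound lay farthest from 0. They were the first 10 losses and 10 gains in protein-coding genes, 4 and 4 with at least 20 cytosines per 200 bp, 3 and 3 of at least 600 bp (no gain exists), 4 and 4 in start windows, the first 10 of the osteoclast list, and the deepest region of each class of BMM level. Alternatives changed the deposited p-value, depth, difference, width, repeat, chromosome and gene filters and the class definitions.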

Additional observations from a re-analysis of the deposited data

How the results depend on the processing

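The share of regions lower in pOC stayed above 92% under every filter tried. It was 92.9% in the full list, 98.8% where the authors' p-value was 0.001 or less and 94.8% with at least 30 reads in both libraries. At differences of at least 30 points it was 94.7%. It was 96.2% of the 65059 regions whose interval excluded 0 when counting a read once per strand was approximated. The share was 92.5% in 200 bp regions, 96.7% with 1 region per protein-coding gene and 97.5% with at least 10 cytosines. The median loss and gain under the same filters were -37.22 and 37.83, -27.27 and 24.49, -36.11 and 34.56, -39.87 and 37.93, -29.47 and 27.27, -27.77 and 24.73, and -27.35 and 24.13 points. They were -29.41 and 27.18 on autosomes, and the gain was 27.27 without repeat-like regions.

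The contrast by starting level (median loss at 80 to under 100% minus that at 20 to under 40%) was -5.71 points by BMM level, -1.83 by mOC level, -5.32 with 40 to under 60 reads, and reversed to 3.62 by the mean of both levels. The ratio of pOC to BMM differed by 0.468, which the listing rule fixes in part. The contrast by CG density (10 or more minus under 6 cytosines per 200 bp) was 5.09 points, 4.40 at 80 to under 100% in BMM and 0.743 with 40 to under 60 reads. The share lower in genes minus outside was 4.87 points, 5.39 with 2000 bp added to each gene end, 0 by construction at 80 to under 100% in BMM, and reversed to -0.907 at 60 to under 80%. The share lower in wider minus 200 bp regions was 6.64 points, and 3.09 at 60 to under 80% in BMM. The settings that match reads, and those at 60 to under 80%, were added after seeing the data. The cause of these changes was not tested. No paired analysis was possible because each stage had 1 library. At a median of 32 reads a single region carries wide counting error, and no replicate error can be given.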
